A study of Mus musculus with 2 samples.

Results

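Lipocalins are small secreted proteins that fold into a barrel with a pocket for a greasy ligand. The 10 lipocalin genes described here were taken by symbol from a table of 54532 genes: Lcn2, Lcn5, Lcn6, Lcn8, Lcn9, Lcn10, Lcn12, Ptgds, Rbp4 and Apod. Each symbol stood on 1 line of the table. The set was chosen by family name and selected on the FPKM values of these same 2 libraries, where several of its genes stood among the most abundant, so levels and differences are given as a description and none was tested. RNA came from abdominal fat of mice aged 3 to 4 weeks with a Trappc9 knockout (KO) and from wild-type (WT) mice of the same age, with 1 library per genotype. Trappc9 encodes a subunit of TRAPP complexes, which act in vesicle traffic. Material from 3 KO and 3 WT mice is named, and it is described in turn as a collagenase digest, as stem cells from fat and as frozen pads. Which of these was sequenced, whether mice were pooled, the knockout allele, the sex and the strain are not given in the sources used here.

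Epididymal lipocalins are secreted by the epithelium of the epididymis, where sperm gain motility, and are thought to carry retinoids and other small lipids to the lumen. Many of their genes arose by duplication and stand side by side on mouse chromosome 2. Other lipocalins have wider roles. Lcn2 binds the iron-carrying siderophores of bacteria, Ptgds both makes prostaglandin D2 and carries lipids, Rbp4 carries retinol in plasma and is secreted by liver and fat, and Apod binds arachidonic acid and steroids.

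The promoters of 5 genes of the chromosome 2 cluster are printed because these neighbours include the 3 lipocalins with the highest mean level and the only one with a lower level in the library labelled KO. They are RefSeq sequences of build GRCm38.p6 (mm10), 5′ to 3′ on the gene's own strand, from 250 bases before the RefSeq start site to 50 bases after it. Capitals mark TATAA, the core of the TATA box, on either strand, and a window with no capitals held none.
Lcn8, chr2:25652868-25653167, plus strand: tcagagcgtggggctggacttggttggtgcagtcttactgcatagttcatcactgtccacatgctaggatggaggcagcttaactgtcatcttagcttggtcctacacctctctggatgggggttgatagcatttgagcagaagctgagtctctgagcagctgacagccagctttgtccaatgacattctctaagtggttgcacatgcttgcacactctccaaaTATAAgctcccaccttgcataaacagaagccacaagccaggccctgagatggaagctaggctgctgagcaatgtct
Lcn5, chr2:25657702-25658001, plus strand: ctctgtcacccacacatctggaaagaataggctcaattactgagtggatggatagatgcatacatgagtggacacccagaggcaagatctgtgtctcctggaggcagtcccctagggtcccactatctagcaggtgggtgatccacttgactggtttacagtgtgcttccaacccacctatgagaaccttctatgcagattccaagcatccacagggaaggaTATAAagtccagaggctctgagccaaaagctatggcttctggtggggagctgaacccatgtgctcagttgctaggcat
Lcn6, chr2:25676536-25676835, plus strand: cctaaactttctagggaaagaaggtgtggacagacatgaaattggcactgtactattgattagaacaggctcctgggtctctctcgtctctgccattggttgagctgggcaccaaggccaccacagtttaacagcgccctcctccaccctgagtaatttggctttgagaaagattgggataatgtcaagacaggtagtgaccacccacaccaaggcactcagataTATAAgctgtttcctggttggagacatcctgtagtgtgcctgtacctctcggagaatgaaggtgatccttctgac
Lcn10, chr2:25682476-25682775, plus strand: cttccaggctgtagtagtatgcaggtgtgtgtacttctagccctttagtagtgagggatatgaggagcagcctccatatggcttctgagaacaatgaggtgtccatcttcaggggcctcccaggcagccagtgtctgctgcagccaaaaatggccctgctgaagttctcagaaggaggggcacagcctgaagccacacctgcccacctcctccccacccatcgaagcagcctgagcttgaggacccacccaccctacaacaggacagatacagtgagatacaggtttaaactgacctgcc
Lcn9, chr2:25822903-25823202, plus strand: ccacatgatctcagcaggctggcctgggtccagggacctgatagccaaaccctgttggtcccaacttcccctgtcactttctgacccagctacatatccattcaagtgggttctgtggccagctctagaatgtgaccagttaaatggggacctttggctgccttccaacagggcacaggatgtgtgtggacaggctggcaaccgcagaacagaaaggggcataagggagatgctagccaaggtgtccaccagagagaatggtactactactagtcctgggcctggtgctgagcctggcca

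Lcn8, Lcn5 and Lcn6 each held TATAA on the sense strand, beginning 26 bases before the RefSeq start in Lcn8, 28 in Lcn5 and 25 in Lcn6. A sense-strand TATAA beginning 35 to 20 bases before the start occurred in 3.17% of all 32851 RefSeq promoter windows, and 24.9% of windows held it anywhere on either strand. Of the 10 genes only Rbp4 also held one there, in 1 of its 2 windows, 28 bases before the start, and the other 6 genes had no TATAA on either strand. Both strands were searched for 4 further motifs: the C/EBP site TTGCNNAA matched Lcn8, Lcn2 and Rbp4 and 10.8% of all windows, and the FOXA site TGTTTAC matched Rbp4 and 3.65% of all windows. The ETS core CGGAAG (16.9% of all windows) and the NF-kB site (5.78%) matched none of the 10 genes. CpG dinucleotides were few in the 5 windows, from 0 in Lcn5 to 3 in Lcn6, against a median of 7 over all windows. A match describes the letters of a window and shows no binding.

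Depth was 14783728 recovered fragments in the library labelled KO and 13705193 in the library labelled WT. Values are FPKM as deposited by the authors, which relate a gene's fragments to its length and to the size of the library. Trappc9 itself was at 12.6 FPKM in the library labelled KO and 9.94 FPKM in the library labelled WT, a ratio of 1.27 (1.17 to 1.37). A lower level was not seen, a value over the whole gene cannot check a deletion of part of it, and the libraries are therefore named by their labels. Intervals are 95% exact intervals that cover counting error only, and "beyond counting error" means that the interval of the KO over WT ratio of FPKM excluded 1. The 7 mature adipocyte markers summed to 10.8 FPKM in the library labelled KO and 15.5 FPKM in the library labelled WT. Of these, 5 averaged 1 FPKM or more, with 0 higher and 2 lower beyond counting error and 3 within it. The log2 ratio was above 0 in 2 of the 5. The adipokine gene Adipoq, the only 1 at least 2-fold lower, was at 0.51 FPKM in the library labelled KO and 2.30 FPKM in the library labelled WT. It rests on 10 fragments in the library labelled KO and 45 in the library labelled WT. The 8 markers of adipose progenitors, the cells the titles name, summed to 195 FPKM in the library labelled KO and 218 FPKM in the library labelled WT, led by Ly6a at 78.9 FPKM in the library labelled KO and 67.5 FPKM in the library labelled WT. Mature adipocyte markers were thus low and progenitor markers were present. The 10 markers of epididymal principal cells, the cells that secrete lipocalins there, summed to 21704 FPKM in the library labelled KO and 17748 FPKM in the library labelled WT, with none at 0. In bulk RNA, more cells of a type and more RNA per cell cannot be told apart.

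Several of the lipocalin genes were among the most abundant transcripts of both libraries, values on which the set was selected, while Apod and Rbp4 were not. The 10 genes made up a larger share of the library labelled KO. Together they held 166361 fragments there, or 1.13% of the library (interval 1.12 to 1.13), against 107865 fragments or 0.787% of the library labelled WT (0.782 to 0.792). The share was 1.43 times as large in the library labelled KO (counting interval 1.42 to 1.44). Summed FPKM was 11977 in the library labelled KO and 7543 in the library labelled WT. All 10 genes were measured, which is to say had a mean of at least 1 FPKM over the libraries, and 6 of them stood at 300 FPKM or more in both libraries.

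**Figure D1:**
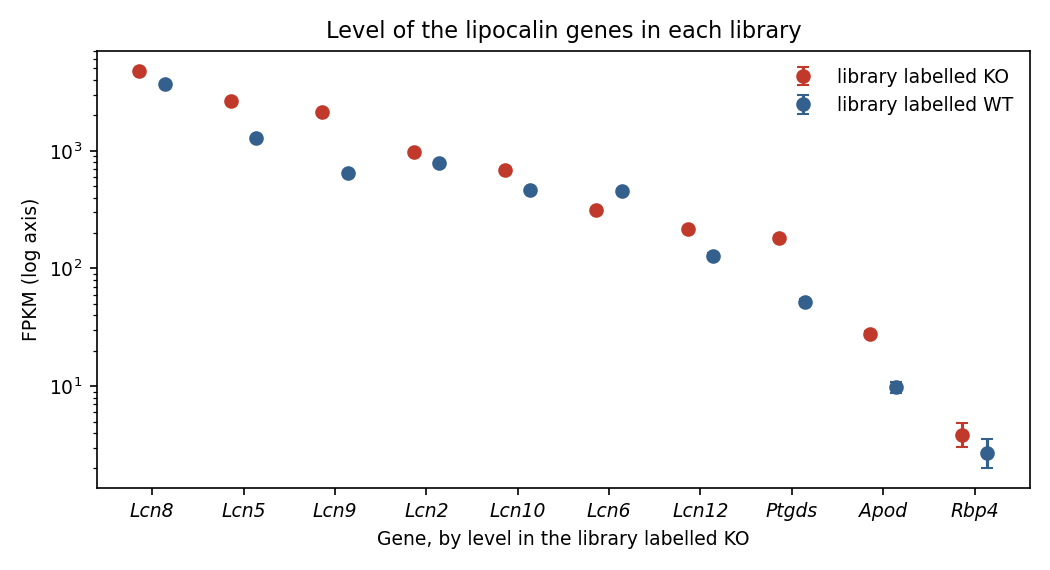
FPKM of the 10 lipocalin genes on a log axis, with 1 red point for the library labelled KO and 1 blue point for the library labelled WT per gene. Bars are 95% exact Poisson counting intervals, mostly smaller than the points. Lcn8 is highest in both libraries (4750 FPKM in red and 3719 FPKM in blue), Rbp4 is lowest, and Lcn6 is the gene whose red point lies below its blue one.

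Lcn8 (ENSMUSG00000036449, chromosome 2, 25653120 to 25656217, plus strand) is a lipocalin of the epididymis and ranked 4 among all genes of each library. It stood at 4750 FPKM in the library labelled KO and 3719 FPKM in the library labelled WT. These levels rest on 44230 fragments in the library labelled KO and 34297 in the library labelled WT. That is 40.6% of the level of the epididymal peroxidase gene Gpx5 in the library labelled KO and 37.1% in the library labelled WT. The ratio of Lcn8 was 1.28 (1.26 to 1.30), which lay beyond counting error and below 2-fold.

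Lcn5 (ENSMUSG00000026937, 25657952 to 25661977, plus strand) encodes the epididymal retinoic acid-binding protein. It stood at 2667 FPKM in the library labelled KO and 1284 FPKM in the library labelled WT. Its rank among protein-coding genes was 7 in the library labelled KO and 16 in the library labelled WT. The ratio was 2.08 (2.04 to 2.12) and the log2 ratio, taken as log2((KO + 1)/(WT + 1)) throughout, was 1.05. This gene lay just past 2-fold, and it fell short of it under every other scaling of the libraries that was tried (log2 0.76 to 0.99).

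Lcn9 (ENSMUSG00000023210, 25823153 to 25825537, plus strand), a further epididymal lipocalin, had the next to largest ratio of the 10 genes. It was at 2154 FPKM in the library labelled KO and 646 FPKM in the library labelled WT, a ratio of 3.33 (3.25 to 3.42) and a log2 ratio of 1.74. It ranked 13 among protein-coding genes in the library labelled KO and 38 in the library labelled WT. Per kilobase, Lcn9 reached 0.454 of the level of Lcn8 in the library labelled KO and 0.174 in the library labelled WT.

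Lcn6 (ENSMUSG00000045684, 25676786 to 25681608) and Lcn10 (ENSMUSG00000047356, 25682726 to 25686081) are neighbours on the plus strand, 1117 bases apart, and differed in opposite directions. Lcn10 stood at 683 FPKM in the library labelled KO and 465 FPKM in the library labelled WT (ratio 1.47, 1.43 to 1.51). Lcn6, whose human counterpart is found on sperm, stood at 316 FPKM in the library labelled KO and 452 FPKM in the library labelled WT (ratio 0.701, 0.680 to 0.722). Lcn6 was the only one of the 10 genes lower beyond counting error, with a log2 ratio of −0.51, and it was lower under every scaling tried. Per kilobase of the table's gene length, Lcn10 was 2.16 times Lcn6 in the library labelled KO, whereas in the library labelled WT the counting intervals of both genes overlapped (ratio 1.03). That order rests on the gene lengths used.

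Lcn12 (ENSMUSG00000026943, 25490845 to 25493911, minus strand), which in the rat binds retinoic acid, was at 216 FPKM in the library labelled KO and 129 FPKM in the library labelled WT. Its ratio was 1.67 (1.57 to 1.79) and its log2 ratio 0.74, the nearest below the 2-fold line.

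Ptgds (ENSMUSG00000015090, 25466709 to 25470046, minus strand), the lipocalin-type prostaglandin D synthase, had the largest ratio of the 10 genes. It stood at 182 FPKM in the library labelled KO and 51.7 FPKM in the library labelled WT. These levels rest on 4283 fragments in the library labelled KO and 1208 in the library labelled WT. The ratio was 3.51 (3.29 to 3.75) and the log2 ratio 1.79. Among protein-coding genes it ranked 212 in the library labelled KO and 809 in the library labelled WT.

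The genes outside the cluster spanned a wide range of levels. Lcn2 (ENSMUSG00000026822), on chromosome 2 but 6559 kb from the cluster (32384633 to 32388252, minus strand), stood at 977 FPKM in the library labelled KO and 784 FPKM in the library labelled WT (ratio 1.25, 1.23 to 1.27). Neutrophils are a known source of Lcn2. Their 8 markers summed to 3.46 FPKM in the library labelled KO and 6.90 FPKM in the library labelled WT. Of these 8, 6 averaged under 1 FPKM and the other 2 were within counting error. The part of neutrophils in the Lcn2 values was not tested. Apod (ENSMUSG00000022548), on chromosome 16 (31296192 to 31314808, minus strand), stood at 27.9 FPKM in the library labelled KO and 9.75 FPKM in the library labelled WT (ratio 2.86, 2.53 to 3.23; log2 ratio 1.43). Its counting interval lay above 2. Rbp4 (ENSMUSG00000024990), on chromosome 19 (38116620 to 38125321, minus strand), was low, at 3.88 FPKM in the library labelled KO and 2.72 FPKM in the library labelled WT. These levels rest on 72 fragments in the library labelled KO and 50 in the library labelled WT. Its ratio of 1.43 had an interval of 0.980 to 2.09, so a difference was not detectable at this depth. Hepatocytes are a main source of Rbp4 in the body, and their 7 markers summed to 2.11 FPKM in the library labelled KO and 4.90 FPKM in the library labelled WT. Of these 7, 5 averaged under 1 FPKM. The part of hepatocytes in the Rbp4 values was not tested.

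**Figure D2:**
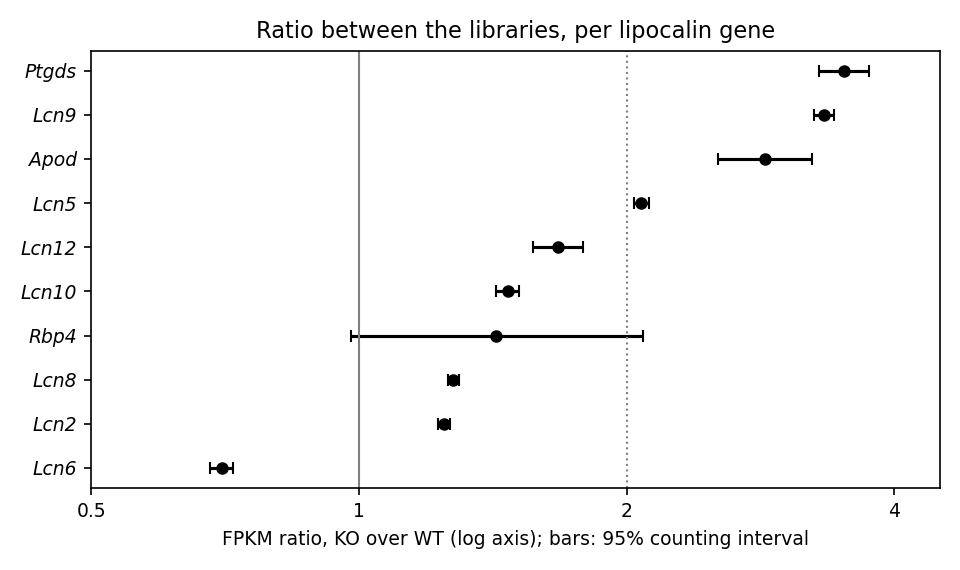
Ratio of FPKM, KO over WT, on a log axis for each lipocalin gene, with bars for the 95% exact counting interval, a solid line at 1 and a dotted line at 2. Ptgds (3.51) and Lcn9 (3.33) lie farthest to the right, Lcn6 (0.701) lies to the left of 1, and the interval of Rbp4 spans 1.

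Of the 10 genes, 4 reached a 2-fold higher level in the library labelled KO (Ptgds, Lcn9, Apod and Lcn5) and 0 a 2-fold lower one. The background was all 13084 protein-coding genes averaging 1 FPKM or more, of which 0.948% were 2-fold or more higher and 0.29% 2-fold or more lower. For the 394 of them that averaged 100 FPKM or more, where 7 of the lipocalins lie, 5.33% were 2-fold or more higher. These genes were chosen with the same contrast in view, so nothing is read from the difference between those shares. Beyond counting error 8 were higher, 1 was lower and 1, Rbp4, was neither, where 24.6% of the background was higher and 17.6% lower. From 100 FPKM upwards the shares past counting error were 69.5% higher and 15% lower. The median log2 ratio of the 10 genes was 0.65, against 0.02 over all genes and 0.18 over the genes of 100 FPKM or more. Rescaling to TPM moved the median of all genes by −0.18 and changed the count over all genes at 2-fold to 94 higher and 84 lower, against 124 higher and 38 lower as deposited. Relative to that shifted median the lipocalins had a median of 0.60. In TPM itself 9 of them were above 0 and Lcn6 below.

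The make-up of the lipocalin signal differed as well. Of the summed FPKM, Lcn8 took 39.7% in the library labelled KO and 49.3% in the library labelled WT. Lcn9 took 18.0% in the library labelled KO and 8.57% in the library labelled WT. Lcn5 took 22.3% in the library labelled KO and 17.0% in the library labelled WT, and Lcn2 took 8.16% in the library labelled KO and 10.4% in the library labelled WT. Lcn6 took 2.64% in the library labelled KO and 5.99% in the library labelled WT. These shares are per gene length, and those of fragments differ: Lcn2 held 22% of the 10 genes' fragments in the library labelled KO and 27% in the library labelled WT, and Lcn8 26.6% in the library labelled KO and 31.8% in the library labelled WT.

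**Figure D3:**
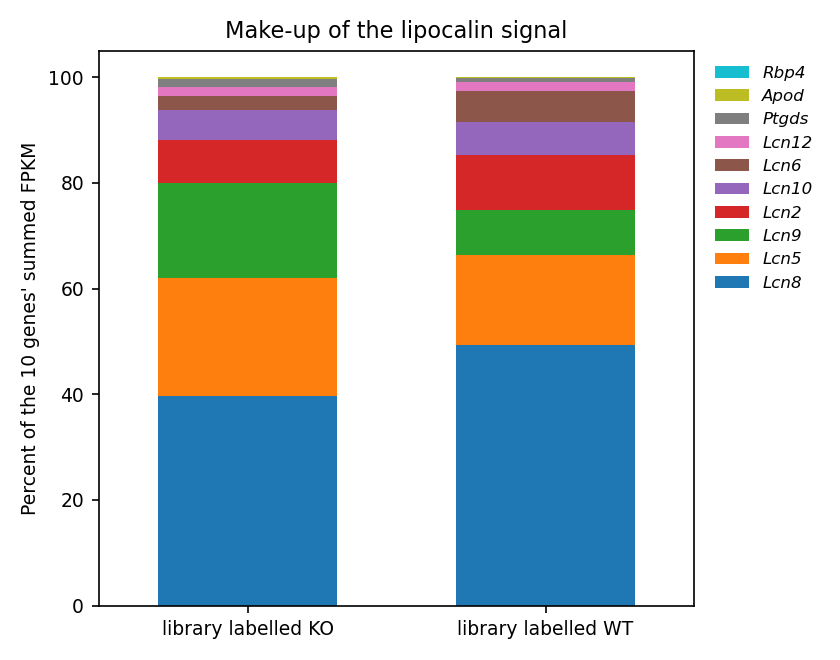
Stacked bars of the percent of the 10 genes' summed FPKM taken by each gene, for the library labelled KO and the library labelled WT. The band of Lcn9 is 18.0% of the bar of the library labelled KO and 8.57% of the bar of the library labelled WT, and the band of Lcn8 is 39.7% of the bar of the library labelled KO and 49.3% of the bar of the library labelled WT.

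The order of levels was Lcn8, Lcn5, Lcn9, Lcn2, Lcn10, Lcn6, Lcn12, Ptgds, Apod and Rbp4 in the library labelled KO. In the library labelled WT, Lcn2 stood above Lcn9, and the other genes kept those places. Neighbours in each order lay apart beyond counting error, except Lcn10 and Lcn6 in the library labelled WT. The gene length in the table equals the union of all exons of the gene's GENCODE M21 transcripts for 9 of the 10 genes. For Lcn2 this length is 2623 bases, 2.87 times that of its principal transcript (915 bases), for Lcn6 2.22 times and for Ptgds 1.83 times, whereas for Lcn8, Lcn9 and Lcn10 both are equal. With the principal transcript's length, Lcn2 would stand at 2802 FPKM in the library labelled KO and 2249 FPKM in the library labelled WT, rank 3 of the 10 in the library labelled KO and rank 2 in the library labelled WT. Lcn6 would then stand at 704 FPKM in the library labelled KO and 1004 FPKM in the library labelled WT, above Lcn10 in the library labelled WT and with overlapping counting intervals in the library labelled KO. Ratios between libraries do not depend on this choice of length.

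On chromosome 2, 7 of the genes lay within 359 kb (25466709 to 25825537, mm10). From Ptgds and Lcn12 on the minus strand the cluster runs through Lcn8, Lcn5, Lcn6 and Lcn10 to Lcn9, all on the plus strand. Lcn8 ends 1734 bases before Lcn5 begins. In this window with 100 kb either side, 34 other genes were listed, of which 23 had a mean of at least 1 FPKM. The 23 had a median log2 ratio of −0.02, between −0.76 for the potassium channel gene Kcnt1 (4.25 FPKM in the library labelled KO and 7.90 FPKM in the library labelled WT) and 0.63 for the pseudogene Gm13433, which had 5 fragments in the library labelled KO and 2 in the library labelled WT. None of them reached 2-fold, 3 (Obp2a among them) were higher and 5 lower beyond counting error, and 15 were within it. The most abundant of them, the lipid transporter gene Abca2, stood at 118 FPKM in the library labelled KO and 98.4 FPKM in the library labelled WT. Edf1, between Lcn12 and Lcn8, was at 71.7 FPKM in the library labelled KO and 62.6 FPKM in the library labelled WT, and Bmyc, beyond Lcn10, at 78.4 FPKM in the library labelled KO and 76.8 FPKM in the library labelled WT. The germ line gene Sohlh1, the next measured gene after Lcn9, was at 0.976 FPKM in the library labelled KO and 1.81 FPKM in the library labelled WT. The 6 highest levels of the window in each library were those of lipocalins, and among measured genes the largest ratios stood at the ends of the cluster, in Ptgds and Lcn9. Below the minimum of 1 FPKM, 2 genes between Lcn10 and Lcn9 were higher beyond counting error. The lipocalin gene Obp2b had 13 fragments in the library labelled KO and 2 in the library labelled WT (ratio 6.44, 1.46 to 58.7), and Glt6d1 had 23 fragments in the library labelled KO and 6 in the library labelled WT.

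**Figure D4:**
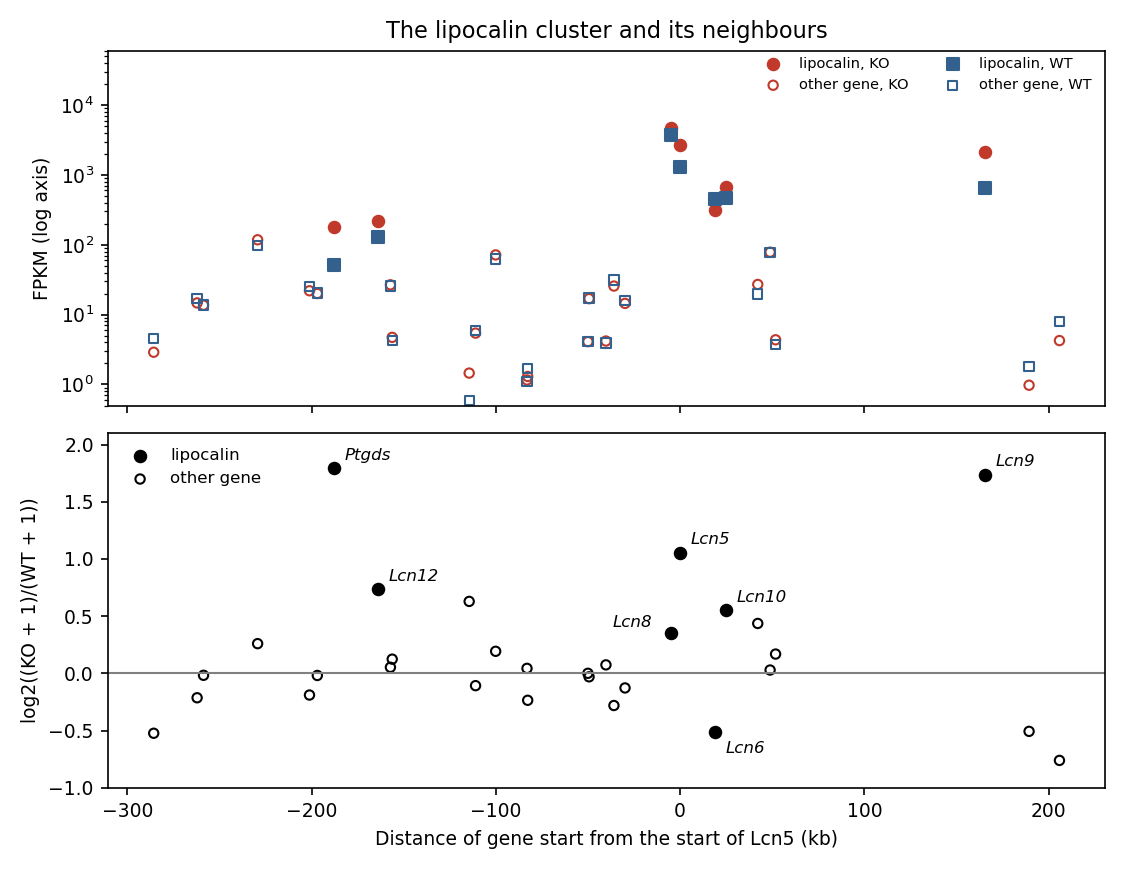
Level (upper panel, FPKM on a log axis, circles for the library labelled KO and squares for the library labelled WT) and log2 ratio (lower panel) of measured genes around the lipocalin cluster, by distance of the gene's start from that of Lcn5 in kb. Filled symbols are the 7 lipocalins described here and open symbols the 23 other genes, which include the lipocalins Obp2a and C8g. Ptgds and Lcn9 have the highest log2 ratios (1.79 and 1.74), and Lcn6 (−0.51) lies below 0 between Lcn5 and Lcn10.

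The 10 genes were chosen by family name, and members of a family can share gene structure and sequence. Likeness among them is therefore given as description only. Their principal transcripts have 6 or 7 exons and coding lengths between 525 (Lcn8) and 603 bases (Rbp4). In pairwise global alignments of the coding sequences, identity over aligned bases ran from 53.4% (Lcn10 and Ptgds) to 62.8% (Lcn5 and Lcn6). No 31-base stretch of their transcripts occurred in transcripts of another gene, apart from 44 such stretches in Apod. Those 44 were shared with 551 other genes, and how far shared reads enter the Apod values was not tested. None of the 10 overlapped another gene of the table on either strand.

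The other lipocalins of the mouse were mostly low. Of 23 further symbols looked up, 19 were in the table and 4 reached a mean of 1 FPKM. The odorant-binding lipocalin Obp2a, the next lipocalin after Lcn10 in the cluster, was at 27.1 FPKM in the library labelled KO and 19.7 FPKM in the library labelled WT (log2 ratio 0.44). Mup6, of the major urinary protein genes, was at 20.1 FPKM in the library labelled KO and 6.85 FPKM in the library labelled WT (1.43), and Mup4 was at 29.7 FPKM in the library labelled KO and 25.2 FPKM in the library labelled WT (0.23). Reads of Mup genes can be shared among near-identical copies, so their levels are uncertain. C8g, a complement subunit, was at 4.73 FPKM in the library labelled KO and 4.26 FPKM in the library labelled WT (0.12). Beyond counting error 3 of these 4 were higher and 0 lower, and in TPM their median log2 ratio was 0.14, against 0.33 as deposited. Lcn3 had 3 fragments in the library labelled KO and 7 in the library labelled WT, and Lcn11 had 0 in the library labelled KO and 2 in the library labelled WT. Lcn4 had 0 fragments in each, where 3 fragments would be 0.271 FPKM in the library labelled KO and 0.274 FPKM in the library labelled WT.

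Receptors of the lipocalins were split between both directions. Of 7 receptor genes, 5 averaged 1 FPKM or more, with 2 higher and 2 lower beyond counting error and a median log2 ratio of 0.00 (−0.20 in TPM). Lrp2, or megalin, which takes up Lcn2 and Rbp4, was at 10.0 FPKM in the library labelled KO and 8.18 FPKM in the library labelled WT (log2 ratio 0.27). The Lcn2 receptor gene Slc22a17 was at 12.7 FPKM in the library labelled KO and 15.0 FPKM in the library labelled WT (−0.22). Stra6, which takes retinol from Rbp4, was at 1.89 FPKM in the library labelled KO and 1.16 FPKM in the library labelled WT (0.42), and Lmbr1l, a receptor of lipocalin-1 in human, was at 4.74 FPKM in the library labelled KO and 6.01 FPKM in the library labelled WT (−0.29).

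Retinoids are ligands of several lipocalins. Of 23 genes that bind, make, break down or sense them, 16 were measured, 3 of these higher and 1 lower beyond counting error, with a median log2 ratio of 0.06 that was −0.11 after rescaling to TPM. Cyp26b1, which breaks down retinoic acid, was at 3.74 FPKM in the library labelled KO and 1.74 FPKM in the library labelled WT (0.79). Adh1, an alcohol dehydrogenase that oxidises retinol, was at 34.2 FPKM in the library labelled KO and 23.4 FPKM in the library labelled WT (0.53). Crabp2, which carries retinoic acid inside cells, was at 1.53 FPKM in the library labelled KO and 2.72 FPKM in the library labelled WT (−0.56), and Rbp2, a cellular retinol carrier, was at 1.53 FPKM in the library labelled KO and 1.03 FPKM in the library labelled WT (0.32, within counting error).

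Ptgds acts after the cyclooxygenases on the prostaglandin D2 route. The 12 genes listed beside it also hold general prostaglandin genes and prostaglandin E synthases. Of the 12, 8 were measured, 1 of them higher and 3 lower beyond counting error, with a median log2 ratio of −0.12 (−0.28 in TPM). The other 4, which include the receptor genes of prostaglandin D2, averaged under 1 FPKM. The median therefore does not describe steps particular to prostaglandin D2. Ptgs2, a cyclooxygenase that makes the substrate of Ptgds, was at 13.1 FPKM in the library labelled KO and 14.6 FPKM in the library labelled WT (−0.14). The prostaglandin E synthase gene Ptges was at 21.2 FPKM in the library labelled KO and 23.5 FPKM in the library labelled WT (−0.14), and Ptges2 was at 7.46 FPKM in the library labelled KO and 6.18 FPKM in the library labelled WT (0.24). Hpgd, which breaks prostaglandins down, was at 21.3 FPKM in the library labelled KO and 24.4 FPKM in the library labelled WT (−0.19). The log2 ratios of the 8 genes ran from −0.19 to 0.24, beside 1.79 for Ptgds.

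Iron handling, the setting of Lcn2, held 1 large difference. Of 10 genes 8 were measured, 3 of them higher and 3 lower past counting error, with a median of −0.02 (−0.21 in TPM). Ltf, lactoferrin, a secreted iron-binding protein, was at 21.8 FPKM in the library labelled KO and 4.26 FPKM in the library labelled WT (log2 ratio 2.12). The ferritin light chain gene Ftl1 was at 418 FPKM in the library labelled KO and 289 FPKM in the library labelled WT (0.53). The heme oxygenase gene Hmox1 was at 12.2 FPKM in the library labelled KO and 19.5 FPKM in the library labelled WT (−0.64), and the transferrin gene Trf was at 2.32 FPKM in the library labelled KO and 3.47 FPKM in the library labelled WT (−0.43). Of 10 measured genes that induce or accompany Lcn2 in inflammation, 3 were higher and 3 lower beyond counting error (median 0.04, and −0.16 after rescaling to TPM). The cytokine gene Il1b was at 16.2 FPKM in the library labelled KO and 11.9 FPKM in the library labelled WT (0.41), and Il6 at 8.06 FPKM in the library labelled KO and 9.54 FPKM in the library labelled WT (−0.22). Cebpd, a C/EBP factor, was at 31.1 FPKM in the library labelled KO and 26.8 FPKM in the library labelled WT (0.21). Mmp9, whose protein forms a complex with lipocalin-2 in human, was at 2.29 FPKM in the library labelled KO and 3.31 FPKM in the library labelled WT (−0.39).

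ETS factors are among the known regulators of epididymal genes. In a list of 12 such regulators 9 were measured, of which 1 was higher and 3 lower beyond counting error, with a median log2 ratio of 0.01 that was −0.19 after rescaling to TPM. Etv4, an ETS factor, was at 21.3 FPKM in the library labelled KO and 24.3 FPKM in the library labelled WT (−0.19), and the glucocorticoid receptor gene Nr3c1 was at 10.6 FPKM in the library labelled KO and 11.8 FPKM in the library labelled WT (−0.14). Dicer1, which processes microRNAs, was at 7.29 FPKM in the library labelled KO and 6.71 FPKM in the library labelled WT (0.10). Foxa3, the highest of the 3 Foxa genes, was at 0.24 FPKM in each library.

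Markers of epididymal principal cells, and the measured genes of spermatids and sperm, were also higher in the library labelled KO. Of 10 epididymal principal cell markers, 10 were higher in the library labelled KO beyond counting error and 3 at least 2-fold, with a median log2 ratio of 0.58 and 8 of 10 above 0 after rescaling to TPM. Over all protein-coding genes averaging 1 FPKM or more, 24.6% were higher beyond counting error and 0.948% at least 2-fold. From 100 FPKM upwards, where most of these markers lie, those shares were 69.5% and 5.33%. The ratios of the epididymal principal cell markers ran from log2 0.15 to 1.32. This range holds 6 of the lipocalins but not Lcn9, Ptgds and Apod above it or Lcn6 below it. The ratio of the sums of these markers was 1.22. With the libraries rescaled to make those sums equal, a setting chosen after the data were seen, the lipocalins had a median log2 ratio of 0.36, Lcn9, Ptgds and Apod were still past 2-fold, and Lcn6 was still lower. Of 7 spermatid and sperm genes 6 were measured, and these 6 were all past 2-fold, while Acrv1, under 1 FPKM in each library, was at 0.192 FPKM in the library labelled KO and 0.426 FPKM in the library labelled WT. The list had sums over the 7 of 172 FPKM in the library labelled KO and 35.8 FPKM in the library labelled WT. The part of these cells in the lipocalin values was not tested.

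Over 7 further marker lists, the ratio of sums, KO over WT, lay between 0.891 and 1.42. Of the 8 adipose progenitor markers, 3 were higher and 5 lower beyond counting error, with a median log2 ratio of −0.18. Macrophage markers summed to 131 FPKM in the library labelled KO and 142 FPKM in the library labelled WT, with 0 higher and 2 lower beyond counting error. Mesothelial markers summed to 131 FPKM in the library labelled KO and 143 FPKM in the library labelled WT, but Krt19 alone stood at 104 FPKM in the library labelled KO and 95.1 FPKM in the library labelled WT. The other 4 mesothelial markers were lower beyond counting error, and the list's median log2 ratio was −0.54. Sums for epididymal clear and basal cells, pooled in 1 list, were 141 FPKM in the library labelled KO and 140 FPKM in the library labelled WT. Of these markers 2 were higher and 2 lower, with a median of −0.11. The higher ones were Atp6v0d2 (log2 ratio 1.03, past 2-fold) and Foxi1 (0.22), and the lower ones Krt5 (−0.18) and Trp63 (−0.37). Testicular somatic markers summed to 14.6 FPKM in the library labelled KO and 10.3 FPKM in the library labelled WT, of which the steroid-making enzyme gene Cyp17a1 held 10.1 FPKM in the library labelled KO and 5.54 FPKM in the library labelled WT. The other 2 measured testicular markers were within counting error, and the median was −0.07. Blood endothelial markers summed to 40.0 FPKM in the library labelled KO and 33.4 FPKM in the library labelled WT, with 4 higher and 0 lower, and those of smooth muscle and pericytes to 661 FPKM in the library labelled KO and 657 FPKM in the library labelled WT, with 3 higher and 2 lower.

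**Figure D5:**
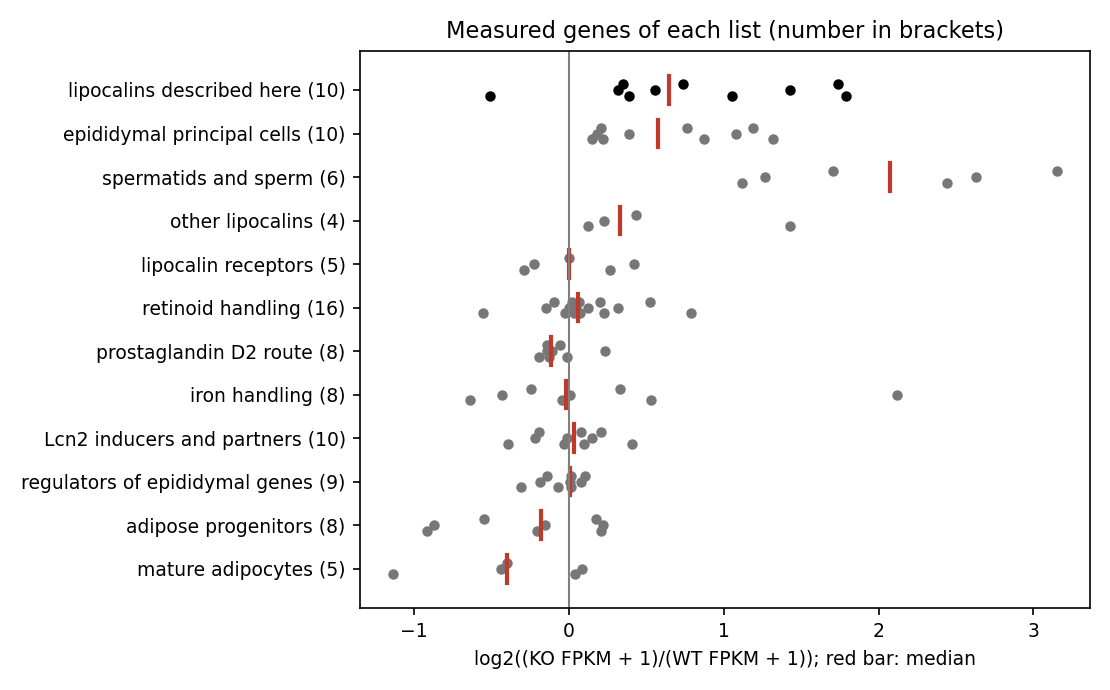
log2((KO + 1)/(WT + 1)) of each measured gene in 12 lists, 1 point per gene, with a red bar at the list's median and the number of measured genes in brackets. The lipocalins have a median of 0.65 and the epididymal principal cell markers one of 0.58. Receptors, retinoid, prostaglandin, iron and regulator lists have medians between −0.12 and 0.06. After rescaling to TPM, not drawn here, the lipocalins have 0.45, the epididymal principal cell markers 0.37, and those lists between −0.28 and −0.11.

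Likeness in level was measured as the Euclidean distance on log2(FPKM + 1) over the 2 libraries, which is too few for a pattern. The protein-coding genes nearest to Lcn9 were the beta-defensin gene Defb48 (2193 FPKM in the library labelled KO and 848 FPKM in the library labelled WT, distance 0.39), Gm17416 (0.67) and the amino acid transporter gene Slc38a5 (0.83). Nearest to Lcn5 were the beta-defensin-like gene Spag11b (2031 FPKM in the library labelled KO and 1470 FPKM in the library labelled WT, distance 0.44), mt-Nd1 (0.46) and the clusterin gene Clu (0.50). Nearest to Lcn8 were mt-Co1 (0.24), mt-Cytb (0.76) and the translation factor gene Eef1a1 (0.95).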

How the data were processed

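The authors deposited FPKM values for 54532 genes in 2 libraries, beside each gene's length, position and biotype. Per the submitters' processing notes, the aligner HISAT2 (version 2.0.5) was used, and both mm10 and hg38 are named as builds. The positions here are those of mm10. The counting program and the library size behind FPKM are not given in the sources used here. The FPKM values imply a size of 1.43043e+07 for the library labelled KO and 1.41646e+07 for the library labelled WT. These are not the recovered fragments, which were 14783728 in the library labelled KO and 13705193 in the library labelled WT. Ratios of deposited FPKM and ratios scaled to recovered fragments therefore differ. Per the labels' protocols, total RNA went into an Illumina TruSeq RNA kit. Multiplying FPKM by gene length and dividing by the smallest step of each library gave whole fragments, to within 0.01, for 100% of values above 0. On 1 kb of length that step is 0.0699 FPKM for the library labelled KO and 0.0706 FPKM for the library labelled WT.

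With 1 library per genotype no p-value, SE or replicate check exists. Differences are on the log2 scale after adding a pseudocount of 1 FPKM, which understates changes of low genes. Ratios carry exact 95% Clopper-Pearson intervals for the part of a gene's fragments that fell in the library labelled KO, levels exact Poisson intervals, and a count of 0 an upper limit of 3 fragments. Reads without molecular identifiers are not independent molecules, and these cover counting error only. Recovery and intervals were checked on simulated Poisson counts, the kind of error that the intervals assume. That check checks the calculation only and cannot speak to any other spread. Of the gene IDs, 54495 occurred in GENCODE M21 (GRCm38, or mm10) and 53585 had the same position. All 10 genes matched a RefSeq promoter entry, and Rbp4 had 2.

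The 10 genes and all lists beside them were chosen with earlier results of these data known, and the motifs after the promoters were seen. Genes were named by rule: the 10 lipocalins, up to 4 measured genes per pathway list with the largest log2 ratio in size, measured neighbours, Trappc9, the most abundant marker of a cell type, and the 3 genes nearest in level to each of the 3 most abundant lipocalins. Acrv1, Adipoq, Atp6v0d2, Foxa3, Foxi1, Glt6d1, Lcn3, Lcn4, Lcn11, Obp2b and Trp63 fall outside it and were added after their values were seen. One gene that the rule names, and 1 motif, are not reported here. Other pseudocounts, minimum levels, scalings, member sets and gene lengths were tried. Python 3.11.15, NumPy 2.4.6, pandas 2.3.3, SciPy 1.17.1, Biopython 1.88 and matplotlib 3.10.9 were used.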

Additional observations from a re-analysis of the deposited data

How the results depend on the processing

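Of the 10 lipocalins, 9 were above 0 and Lcn6 below 0 on the log2 scale under each of 2 other pseudocounts (0.1 and 5 FPKM) and each of 5 other scalings. The count at least 2-fold higher was 4 with either pseudocount and with no minimum level or one of 5 FPKM, and 3 under each of the 5 scalings, in which Lcn5 fell short, and 5 with the other lipocalins added. The count at least 2-fold lower was 0 under each pseudocount, scaling and minimum. Over all protein-coding genes averaging 1 FPKM or more, each of the 5 scalings also gave fewer genes 2-fold higher and more 2-fold lower. Against 124 higher and 38 lower as deposited, there were 94 higher and 84 lower in TPM. By the summed epididymal markers there were 89 higher and 111 lower. With each scaling's all-gene median subtracted, 4 lipocalins were at least 2-fold higher, except 3 by the summed epididymal markers. The lipocalins' own median log2 ratio of 0.65 became 0.45 after rescaling to TPM, 0.55 by total fragments and 0.56 by fragments outside the lipocalins and epididymal markers. It became 0.36 by the summed epididymal markers, a setting added after seeing the data. It was 0.50 with the other lipocalins added and 0.39 over Lcn2, Rbp4 and Apod alone. The ratio of the shares, 1.43 by fragments, was 1.38 by summed TPM and 1.54 without Lcn8. With the length of the principal transcript, also added later, log2 of Lcn10 over Lcn6 was −0.043 in the library labelled KO and −1.11 in the library labelled WT, against 1.11 in the library labelled KO and 0.041 in the library labelled WT with the table's lengths, because only the length of Lcn6 changes. No paired analysis was possible because each genotype has 1 library, so no replicate could be left out either. Depth limits Rbp4, with 72 fragments in the library labelled KO and 50 in the library labelled WT.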
